A study of Mus musculus with 15 samples.

Results

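The genes described are 6 members of the small leucine-rich proteoglycan (SLRP) family: decorin (Dcn), lumican (Lum), biglycan (Bgn), osteoglycin (Ogn), prolargin (Prelp) and fibromodulin (Fmod). They were taken by gene symbol from a deposited RNA-seq table of 10222 symbols and 12698 RefSeq transcripts, and all 6 were present. The members were chosen with earlier results of these data known. RNA was sequenced from 5 populations sorted directly from C57BL/6 IL33-citrine reporter mice, with 3 libraries of each. Il33+ and Il33- WAT-MSC were citrine-positive and citrine-negative stromal cells of white adipose tissue (WAT), labelled mesenteric, and lung Il33+ MSC were the citrine-positive stromal cells of lung. The study's methods gate WAT-MSC as cells without lineage, CD45, EpCAM, CD31 and CD24 staining and with PDGFRα, CD34, Sca1 and podoplanin. The other populations were CD31+ endothelial cells of WAT and EpCAM+ epithelial cells of lung. All mice carried the reporter allele, no treatment is labelled, and the ages of the mice and the zygosity of the reporter in these libraries are not stated in the sources used here. The populations mix tissue with cell type, because no lung endothelial, WAT epithelial or lung Il33- stromal library was analysed here.

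SLRPs are secreted proteins with a short core of leucine-rich repeats that bind fibrillar collagen and set the diameter and spacing of its fibrils. Class I members, Dcn and Bgn, carry chondroitin or dermatan sulphate chains, class II members, Lum, Fmod and Prelp, are of the keratan sulphate or tyrosine-sulphated kind, and Ogn belongs to class III. Beyond collagen, decorin binds TGF-β and growth factor receptors, and soluble biglycan is a ligand of Toll-like receptors. Fibroblasts are their usual source in adipose tissue and lung.

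The genes lie in small clusters in the mouse genome (GRCm38.p6, the patched form of the mm10 build that the submitters used). Prelp (minus strand) and Fmod (plus strand) are neighbours on chromosome 1, at chr1:133910304-133930102 and chr1:134037254-134048280, with 107151 bases and no coding gene between them. Dcn (chr10:97479500-97518163) and Lum (chr10:97565501-97572703) are separated by 47337 bases. Ogn (chr13:49608015-49624501) follows the family member Omd, and Bgn lies on the X chromosome (chrX:73483601-73495936). Each gene was represented by 1 transcript in the table except Dcn, which had 2. The Dcn transcripts, NM_007833 and NM_001190451, share 7 exons and the whole coding sequence and differ in a first exon of 181 bases, so their values were summed, and the split of reads between them is uncertain.

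Libraries held 42711843 to 60773158 alignments (median 53038567), and no library stood apart in depth. Expression was given in RPKM, the reads of a transcript scaled by its length and by all mapped reads of the library, so levels can be compared between genes per unit of length. No read counts entered, which leaves the counting error unknown, so each ± is an SD over 3 libraries. The labels were checked against marker genes. The 15 stromal markers summed to 2067 to 3841 RPKM in the 9 stromal libraries and to 112 to 191 in epithelial libraries. Endothelial markers summed to 797 to 947 RPKM in endothelial libraries, to at most 95.0 in stromal ones and to 87.2 to 131 in epithelial ones. Epcam averaged 31.4 RPKM in epithelial cells against at most 0.117 elsewhere. Epithelial libraries also held the most leukocyte marker RNA, the 6 markers found summing to 721 to 1378 RPKM. The highest such sum elsewhere was 232, in lung Il33+ MSC. The epithelial sum was mainly Lyz2, at a mean of 1006 RPKM. Endothelial libraries also held 1479 to 2580 RPKM of stromal markers, 229 to 299 of mural markers and 190 to 409 of the 3 adipocyte markers found. The adipocyte sum was mainly Fabp4, at a mean of 267 RPKM, with Lipe at 6.08 and Pparg at 2.27. Of the stromal markers, Vim averaged 483, Dpt 366, Ly6a 287 and Cd34 136 RPKM there. These sums do not show which cells the RNA came from. In bulk RNA, fewer cells of a type and less RNA per cell cannot be told apart.

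Dcn was the most even of the 6 genes across stroma, its stromal means differing by at most 1.11-fold. Its 3 values were 2439, 3296 and 2624 RPKM in Il33+ WAT-MSC, 2035, 2908 and 2895 in Il33- WAT-MSC, and 2472, 2509 and 2528 in lung Il33+ MSC. The stromal ranges overlapped, and by mean RPKM Dcn ranked 4, 5 and 8 of 10222 genes in these populations. Endothelial libraries gave 936, 916 and 1472 RPKM, below every stromal library, and epithelial libraries gave 53.1, 29.2 and 54.7. Of the 4 steps in its order of means, from Il33+ WAT-MSC at 2786 ± 451 (SD, n = 3) through Il33- WAT-MSC, lung Il33+ MSC and endothelium to epithelium, limma with Benjamini-Hochberg adjustment called only the last, endothelial against epithelial cells (24.3-fold, adjusted p = 7.04e-05). The step from lung Il33+ MSC to endothelium was 2.26-fold and missed the threshold (adjusted p = 0.0821), and no libraries overlapped. The share of all genes without overlap is not given here, so for every gene in this text a lack of overlap is a description only.

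Bgn, the other class I member, was also among the most abundant transcripts of stroma (rank 5 to 14 of 10222) but unevenly spread. It measured 2754, 2349 and 3639 RPKM in lung Il33+ MSC, 1669, 2084 and 2675 in Il33+ WAT-MSC, and 788, 899.8 and 1052 in Il33- WAT-MSC. Every Il33+ stromal library of either tissue lay above every Il33- WAT-MSC library. Endothelial libraries, at 972, 678 and 1346 RPKM, overlapped those of Il33- WAT-MSC (mean 999 ± 335 against 913 ± 132), and these neighbours did not differ beyond their spread (adjusted p = 0.938). Epithelial libraries held a Bgn level of 164 ± 44.5 RPKM (161, 120.4 and 209), which ranked 67 of 10222 genes there. Only the last of the 4 steps in its order, Il33- WAT-MSC over epithelium, passed the test (5.58-fold, adjusted p = 6.79e-05). Lung Il33+ MSC, not adjacent to Il33- WAT-MSC in this order, exceeded it 3.19-fold (adjusted p = 0.00226).

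Among class II genes, Lum had its highest levels in WAT stroma. Its libraries gave 372, 527 and 512 RPKM in Il33+ WAT-MSC, 320, 328 and 418 in Il33- WAT-MSC, and 192, 176 and 226 in lung Il33+ MSC. The WAT populations overlapped each other, and neither overlapped the lung. Endothelial values of 148, 98.2 and 226 RPKM reached as high as the lung stromal ones, whereas epithelial values were 3.56, 1.77 and 1.91, with the lowest epithelial mean of the 6 genes. Steps from Il33- WAT-MSC to lung Il33+ MSC (1.79-fold, adjusted p = 0.0289) and from endothelium to epithelium (65.3-fold, adjusted p = 4.92e-05) were called.

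Prelp was ordered differently, with its highest mean in Il33- WAT-MSC. It measured 492, 640 and 560.4 RPKM there, 411, 430.4 and 482 in lung Il33+ MSC, and 386, 306 and 366 in Il33+ WAT-MSC. Neither step between these 3 populations passed the test (adjusted p = 0.382 and 0.424). Their libraries did not overlap, and the share of all genes for which this holds is not given. Endothelial libraries had 200.3, 202 and 357 RPKM and overlapped those of Il33+ WAT-MSC. Epithelial libraries, at 36.5, 35.2 and 42.5 RPKM, were 6.64-fold below endothelium (adjusted p = 0.000442).

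Fmod was the least abundant member in stroma and had the largest relative spread in endothelium and epithelium. Lung Il33+ MSC gave 45.3, 52.9 and 64.7 RPKM, Il33+ WAT-MSC 40.7, 30.3 and 69.5, and Il33- WAT-MSC only 7.76, 10.7 and 7.74. Endothelial libraries ran from 9.51 through 36.6 to 51.8 RPKM and so overlapped all 3 stromal populations, and epithelial libraries ran from 0.33 through 1.65 to 7.04. The coefficient of variation was 65.7% in endothelium and 118% in epithelium, against 18 to 43.3% in stroma. Only the step from Il33- WAT-MSC to epithelium was called (2.90-fold, adjusted p = 0.0421).

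Ogn, of class III, resembled Dcn in its evenness across stroma. Stromal libraries ranged from 205 to 401 RPKM, with means of 291 ± 100.4 in Il33+ WAT-MSC, 264 ± 16.5 in Il33- WAT-MSC and 235 ± 30.9 in lung Il33+ MSC, and all 3 sets overlapped. Endothelial libraries gave 123, 65.6 and 91.7 RPKM and epithelial libraries 17.1, 8.35 and 12.8. Both of these drops were called, at 2.51-fold (adjusted p = 0.0264) and 7.33-fold (adjusted p = 0.000724). Over the 6 genes, 8 of 24 steps between neighbouring populations passed the test, and 6 of the 8 led to the epithelial cells. The comparisons behind these steps called 1.57 to 42.1% of all genes, given below.

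**Figure D1:**
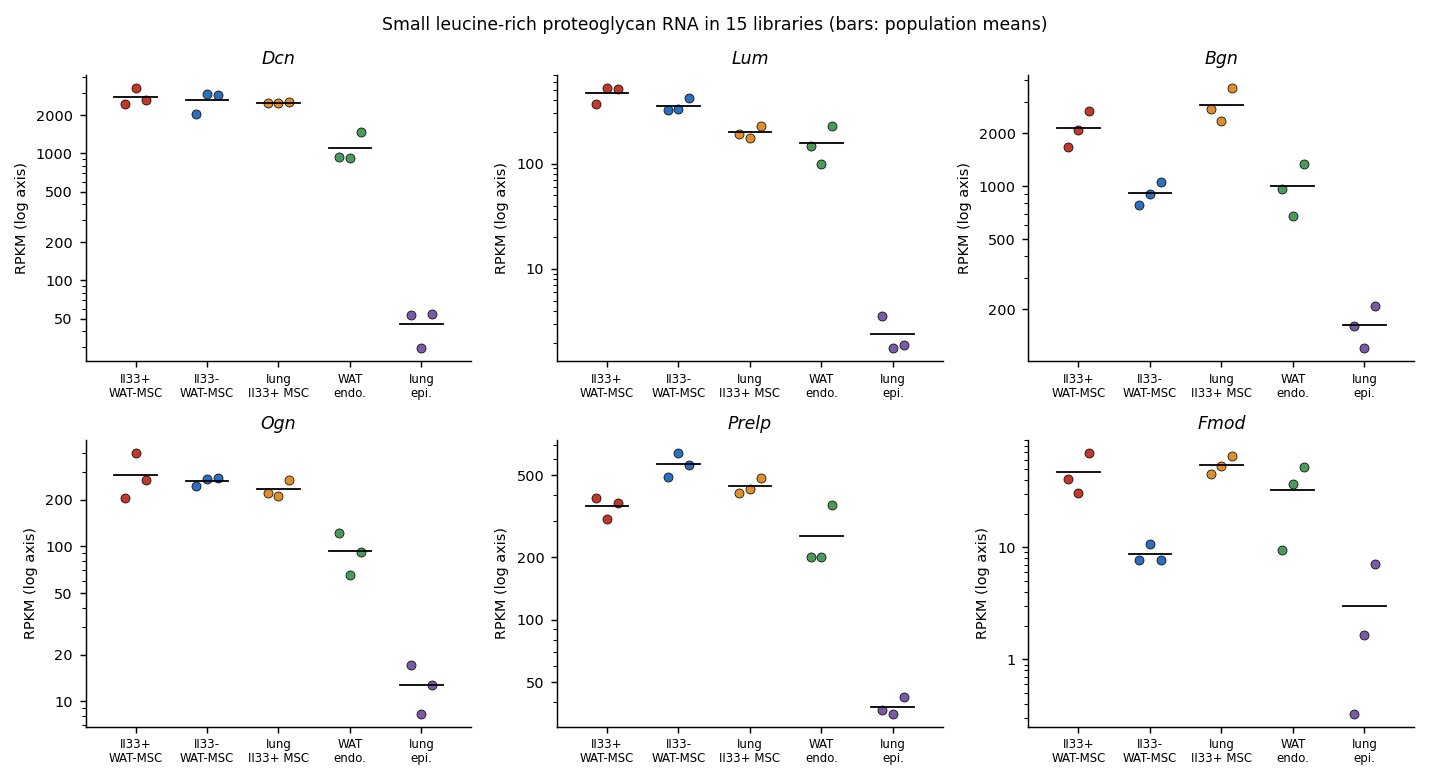
RPKM on a log axis for each of the 6 genes in the 5 populations, with 1 point for each of 3 libraries and a bar at the mean. Bgn and Fmod are lower in all 3 Il33- WAT-MSC libraries than in any Il33+ stromal library, Prelp is highest in Il33- WAT-MSC, and all 6 genes are lowest in lung epithelium.

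Together the 6 genes made up 3.56 ± 0.412% (SD, n = 3) of all RPKM in Il33+ WAT-MSC, 2.90 ± 0.00232% in Il33- WAT-MSC and 3.41 ± 0.299% in lung Il33+ MSC. The share was 1.81 ± 0.276% in endothelial and 0.0896 ± 0.0261% in epithelial cells. Within this pool, Dcn had the highest mean share in WAT stroma, at 45.9 ± 4.93% in Il33+ and 55.1 ± 2.60% in Il33- cells, and Bgn in lung Il33+ MSC at 45.6 ± 4.75% and in epithelium at 61.4 ± 2.23%. In each Il33+ stromal population 1 library had the other order. Bgn exceeded Dcn in Il33+ WAT-MSC replicate 3 (41.1 against 40.3%), and Dcn exceeded Bgn in lung Il33+ MSC replicate 2 (43.8 against 41%). Bgn accounted for 31.4 to 41.1% of the pool in Il33+ WAT-MSC libraries and for 17.8 to 20.3% in Il33- ones, so the ranges did not overlap. Prelp had the opposite order, with 4.60 to 7.56% and 10.8 to 12.7%. Shares of one pool are tied, so a larger Bgn share by itself lowers that of Prelp. In RPKM Prelp was 1.6-fold higher in Il33- than in Il33+ WAT-MSC and was not called (limma, adjusted p = 0.257). The ratio of Prelp to its genomic neighbour Fmod was 9.50, 10.1 and 5.26 in Il33+ WAT-MSC, 63.4, 59.9 and 72.4 in Il33- WAT-MSC, and 9.06, 8.13 and 7.45 in lung Il33+ MSC. A ratio within a library does not change with the scaling of that library. The ratio of Dcn to its neighbour Lum was 5.98 ± 0.758 and 7.38 ± 1.31 in Il33+ and Il33- WAT-MSC and 12.8 ± 1.52 in lung Il33+ MSC.

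**Figure D2:**
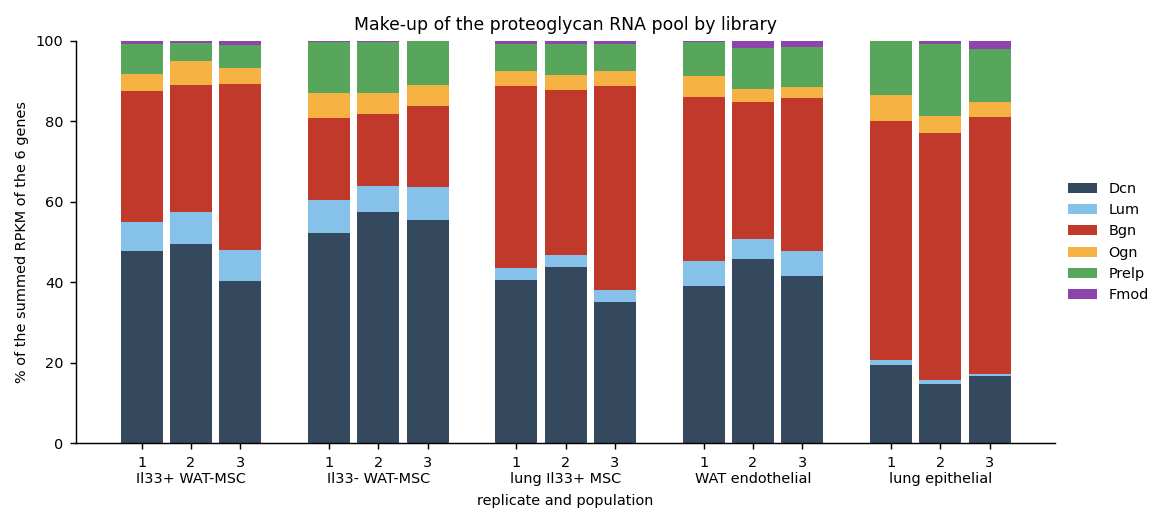
Stacked bars give, for each of 15 libraries, the percent of the summed RPKM of the 6 genes that came from each gene. The Bgn part is 17.8 to 20.3% in Il33- WAT-MSC and larger in every other library, and the Dcn part is smallest in lung epithelium.

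The first comparison asked whether stromal cells of one tissue that do and do not express Il33 differ in these genes. Fmod, whose product guides collagen fibril assembly, was 5.37-fold higher in Il33+ than in Il33- WAT-MSC (46.8 ± 20.3 against 8.73 ± 1.69 RPKM, n = 3 each). Its log2 fold change was 2.23 (SE 0.31), with an adjusted p of 0.00558 by limma. It was the only 1 of the 6 called, where 133 of 8448 genes tested (1.57%) were called, 0.923% higher and 0.651% lower in Il33+ cells. Bgn was 2.35-fold higher on average without passing the threshold (log2 1.21, SE 0.28, adjusted p = 0.0614), and no libraries overlapped. Prelp was lower, at 353 ± 41.9 against 564 ± 74.0 RPKM (log2 -0.68, 95% interval -1.18 to -0.17, adjusted p = 0.257), again without overlap. For Dcn, Lum and Ogn the log2 differences were 0.10, 0.40 and 0.08, with intervals of -0.55 to 0.75, -0.14 to 0.93 and -0.50 to 0.67 that include 0. The median over the 6 genes was 0.25, against -0.01 over all genes tested.

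Fmod was called in 13 of 15 alternatives, including each fit that left out 1 library, and not with all 15 libraries in one fit (adjusted p = 0.121) or without the filter on low values (adjusted p = 0.0706). Bgn passed in 4 of 15, with the replicate block, the lane as a covariate and either rescaling of the libraries (adjusted p = 0.00756 to 0.0417). Within sequencing lane 1, with 2 libraries a side, the log2 differences were 1.84 for Fmod and 1.15 for Bgn, and within lane 2, with 1 library a side, 3.01 and 1.35. Markers of other cells also differed between these populations. The 10 mesothelial markers found of 11 summed to 65.6, 173 and 182 RPKM in Il33+ WAT-MSC and 42.6, 58.7 and 42.2 in Il33- WAT-MSC. The 10 mural markers summed to 34.6 to 41.4 and 6.93 to 19.0, and the 15 stromal ones to 3412 to 3841 and 2067 to 3126. Leukocyte markers ran the other way, the 6 found summing to 9.48, 6.65 and 11.3 RPKM in Il33+ and 36.3, 40.5 and 17.6 in Il33- WAT-MSC. Fmod was 40.7, 30.3 and 69.5 RPKM in Il33+ replicates 1, 2 and 3, where the mesothelial sums were 65.6, 173 and 182. The part of these cells in the differences was not tested.

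The proximal promoters of Fmod, Prelp and Bgn are shown, of which Fmod and Prelp are neighbours on the chromosome and had opposite signs. Between Il33+ and Il33- WAT-MSC limma called Fmod but not Bgn or Prelp (adjusted p = 0.0614 and 0.257). The libraries of these 3 genes did not overlap there, and the share of all genes without overlap is not given here. Each window runs from 250 bases before to 50 bases after the RefSeq start in GRCm38.p6, on the strand of the gene. The start used for the Prelp window lies a few bases inside its measured transcript, and the wider gene span has a further start upstream. Capitals mark matches on either strand to the TATA box (TATAAA), the GC box (GGGCGG), the CCAAT box and the AP-1 motif (TGANTCA).
Fmod, chr1:134037004-134037303, plus strand: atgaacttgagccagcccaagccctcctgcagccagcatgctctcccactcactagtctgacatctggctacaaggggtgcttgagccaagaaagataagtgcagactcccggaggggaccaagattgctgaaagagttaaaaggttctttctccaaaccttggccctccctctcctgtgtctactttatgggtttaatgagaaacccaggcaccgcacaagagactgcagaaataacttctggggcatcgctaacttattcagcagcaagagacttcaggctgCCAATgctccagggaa
Prelp, chr1:133921352-133921651, minus strand: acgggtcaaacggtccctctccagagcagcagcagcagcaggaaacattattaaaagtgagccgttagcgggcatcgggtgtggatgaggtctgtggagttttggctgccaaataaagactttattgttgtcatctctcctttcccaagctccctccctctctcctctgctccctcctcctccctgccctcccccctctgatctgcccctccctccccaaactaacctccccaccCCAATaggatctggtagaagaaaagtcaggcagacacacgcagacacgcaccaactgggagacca
Bgn, chrX:73483351-73483650, plus strand: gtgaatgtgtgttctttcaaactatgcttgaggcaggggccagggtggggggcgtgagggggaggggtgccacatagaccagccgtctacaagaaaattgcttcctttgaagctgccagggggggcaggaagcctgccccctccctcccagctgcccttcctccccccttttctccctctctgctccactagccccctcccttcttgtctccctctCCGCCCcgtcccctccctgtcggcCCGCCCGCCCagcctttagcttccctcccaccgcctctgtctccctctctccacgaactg
The Bgn window had 63.7% GC and 9 CpG dinucleotides, against medians of 52.7% and 7 over 32851 promoter windows, and held 3 GC boxes on the minus strand, of which 2 overlap. Prelp (55.3% GC, 7 CpG) and Fmod (51.0% GC, 3 CpG) each held 1 CCAAT match, at 15 bases before and 35 bases after the start used for the window. The Prelp match spans the first base of the measured transcript. GC boxes occurred in 35.7% of all windows, CCAAT in 37.4%, TATAAA in 13.6% and TGANTCA in 7.81%. The letters TATAAA and TGANTCA did not occur in these 3 windows. Ogn, also in the RefSeq table, had 42.3% GC and 4 CpG and 2 overlapping TATAAA matches more than 200 bases before its start.

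The second comparison set Il33+ stroma of WAT against Il33+ stroma of lung. Lum, which spaces collagen fibrils, was 2.37-fold higher in WAT, at 470 ± 85.5 against 198 ± 25.3 RPKM (log2 1.23, SE 0.21, adjusted p = 0.00579 by limma). It was the only called gene of the 6, and 6.00% of 8554 genes were called, 2.50% higher and 3.50% lower in WAT. The log2 difference of Lum was 1.20 within lane 1 (2 libraries against 1) and 1.36 within lane 2 (1 against 2). Without lung replicate 2 limma called 0 of the 6, with 1 at an unadjusted p below 0.05, and Lum had a log2 difference of 1.15 (adjusted p = 0.0612). In the other 14 alternatives Lum was called. The other log2 differences were 0.14 for Dcn, -0.45 for Bgn, 0.26 for Ogn, -0.33 for Prelp and -0.28 for Fmod. Their 95% intervals all included 0, the widest on the lung side being that of Bgn, -1.05 to 0.16. The median over the 6 genes was -0.07, against 0.03 over all genes. The lung libraries held 181 to 232 RPKM of the 6 leukocyte markers found and 212 to 575 of lung epithelial markers, against 6.65 to 11.3 and 74.3 to 148 in WAT. Mesothelial markers summed to 21.7 to 29.7 in lung, against 65.6 to 182 in WAT, and the part of these in the difference was not tested. Set against Il33- WAT-MSC, where 9.69% of genes were called, lung Il33+ MSC were lower in Lum (1.79-fold) and higher in Bgn (3.19-fold) and Fmod (6.23-fold, adjusted p = 7.62e-05). All comparisons with Il33+ WAT-MSC share the same 3 libraries of that population.

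Endothelial libraries of WAT held all 6 transcripts, at means 1.39- to 3.12-fold below those of Il33+ WAT-MSC. Lum was 2.98-fold lower (157.6 ± 64.6 RPKM, log2 difference 1.63, SE 0.35, adjusted p = 0.0378) and Ogn 3.12-fold lower (93.3 ± 28.5 RPKM, log2 difference 1.62, SE 0.35, adjusted p = 0.0372). These 2 were called, where 3.90% of 8665 genes were called, 0.565% higher and 3.34% lower in Il33+ WAT-MSC. Dcn was 2.52-fold and Bgn 2.15-fold lower in endothelium without overlap of libraries, with adjusted p of 0.0914 and 0.185. Prelp (1.39-fold) and Fmod (1.44-fold) overlapped. The number of members called by limma fell to 0 when any one of the 3 Il33+ WAT-MSC libraries or endothelial replicate 2 was left out, with 3 or 4 at an unadjusted p below 0.05. It was 1 without endothelial replicate 1 (Ogn) and 2 without replicate 3, where Lum and Dcn were called and Ogn was not. With all 15 libraries in one fit, 4 were called, Dcn and Bgn being added. Within lane 1 the log2 difference was 1.86 for Lum and 1.66 for Ogn, and within lane 2 it was 1.17 and 1.53.

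Stromal markers were also measured in the endothelial libraries. The median stromal marker stood at 30.5, 44.3 and 66.5% of its mean in Il33+ WAT-MSC in endothelial replicates 1, 2 and 3, over ranges of 14.1 to 75.9%, 13 to 84.2% and 34.2 to 129%. Dcn stood at 33.6, 32.9 and 52.8%, Lum at 31.6, 20.9 and 48.2%, and Bgn at 45.4, 31.7 and 62.8%. From replicate 1 to replicate 2 the marker median rose, as did Prelp and Fmod (20.3 to 78.1%), whereas Dcn, Lum, Bgn and Ogn fell. Ogn, at 42.2, 22.6 and 31.5%, was the only member that was not highest in replicate 3, and Prelp reached 56.8, 57.2 and 101%. Fmod ran from 20.3 to 111%. The 10 mesothelial markers found summed to 59.8, 257.5 and 279.6 RPKM in endothelial replicates 1, 2 and 3, where Fmod was 9.51, 36.6 and 51.8 RPKM. Each member lay within the range of the stromal markers in each replicate, except Ogn in replicate 3, which lay below it. The part of stromal or mesothelial RNA in the endothelial levels was not tested. Against lung Il33+ MSC, where 7.10% of genes were called, Bgn (2.92-fold, adjusted p = 0.0482) and Ogn were lower in endothelium. Against Il33- WAT-MSC, where 5.69% were called, Ogn was the only member called (2.83-fold lower in endothelium, adjusted p = 0.0186).

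**Figure D3:**
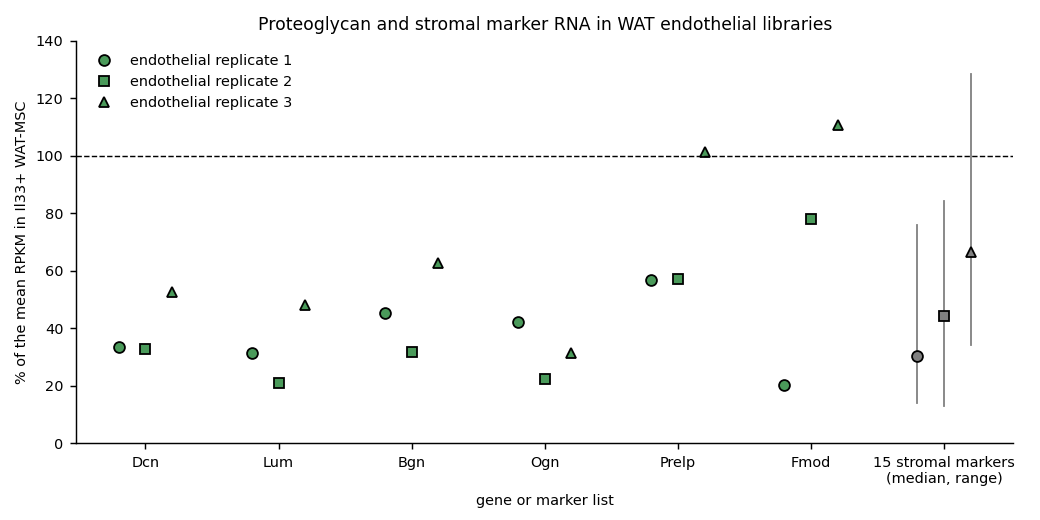
RPKM in each of 3 endothelial libraries as a percent of the mean in Il33+ WAT-MSC, for the 6 genes and, in grey, the median and range of 15 stromal markers. Replicate 3 has the highest stromal marker median, 66.5%, and the highest value of every gene but Ogn.

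Lung epithelial cells were lower in all 6 genes than any other population. Against Il33+ WAT-MSC the fold ran from 9.26 for Prelp through 13.1 for Bgn, 15.6 for Fmod, 22.8 for Ogn and 61.0 for Dcn to 195 for Lum. All 6 passed the test (adjusted p from 3.02e-07 for Lum to 0.00061 for Fmod, limma), in a comparison that called 41.0% of 9267 genes, with 23.0% of the genes tested higher in Il33+ WAT-MSC. Within the lung, Il33+ MSC exceeded epithelium by 11.6-fold for Prelp, 17.8-fold for Bgn, 18.1-fold for Fmod, 18.4-fold for Ogn, 54.8-fold for Dcn and 82.1-fold for Lum. Again all 6 were called, beside 43.0% of 9352 genes, with 24.4% higher in lung Il33+ MSC. The medians over the 6 genes were 4.15 and 4.16 on the log2 scale, against 0.17 and 0.13 over all genes. All 6 were also called in the 15 alternatives of each comparison, and by lane the smallest log2 difference was 3.20, for Prelp. Il33- WAT-MSC and endothelium differed from epithelium in all 6 genes as well, in comparisons that called 42.1% and 27.6% of genes.

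As a percent of the mean in lung Il33+ MSC, Lum stood at 1.80, 0.894 and 0.964% in the 3 epithelial libraries, Dcn at 2.12, 1.17 and 2.19%, Bgn at 5.53, 4.13 and 7.18%, and Prelp at 8.28, 7.99 and 9.64%. The 15 stromal markers had medians of 2.25, 3.45 and 5.38%, over ranges of 0.219 to 15.1%, 0.414 to 11.8% and 1.22 to 17.6%. Each of these 4 members lay within that range in each library, except Lum in replicate 3, which lay below it. The source of these reads was not tested. Scgb1a1, the club cell secretory protein, averaged 1.83e+05 RPKM in epithelial libraries, and RPKM divides each library by all its mapped reads, these included. Scaling the libraries by the median ratio of all genes moved the median log2 difference from 0.17 to -0.08 against Il33+ WAT-MSC and from 0.13 to -0.06 against lung Il33+ MSC. It moved the split of called genes that were higher in Il33+ WAT-MSC from 56.0 to 44.7% and left the direction of all 6 members as it was. In the endothelial comparison the same scaling moved the median from 0.18 to 0.03.

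**Figure D4:**
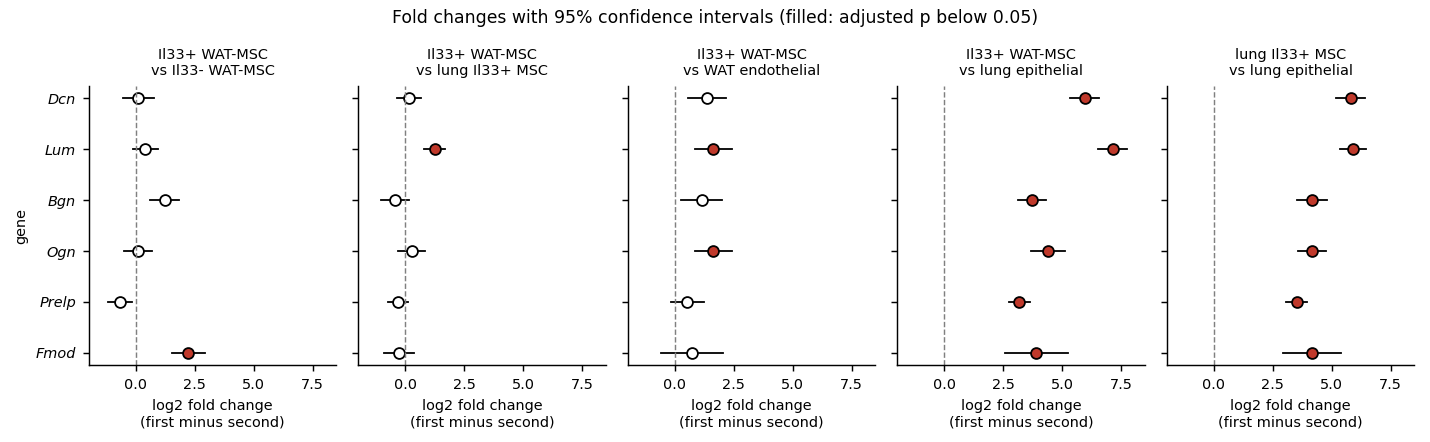
Log2 fold change of RPKM + 1 with its 95% confidence interval for each gene in 5 comparisons of 3 against 3 libraries, filled where the adjusted p was below 0.05. Calls are 1, 1, 2, 6 and 6 from left to right, and the epithelial comparisons lie far from 0 for every gene.

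Of 12 further family genes looked for, 6 were in the table and the others were not analysed here. Omd (osteomodulin), the neighbour of Ogn at a distance of 15402 bases, was like Fmod lower in Il33- WAT-MSC than in either Il33+ stroma, but its highest mean was in Il33+ WAT-MSC and that of Fmod in lung Il33+ MSC. It gave 9.99, 17.9 and 10.6 RPKM in Il33+ WAT-MSC, 1.83, 1.12 and 1.29 in Il33- WAT-MSC, and 12.8, 11.3 and 11.9 in lung Il33+ MSC, so Il33- cells were below all Il33+ stromal libraries. The difference between the WAT populations was called (log2 2.48, SE 0.33, adjusted p = 0.00436), and Ogn beside it had a log2 difference of 0.08. Aspn (asporin), of class I like decorin, was higher in WAT than in lung Il33+ stroma (89.3 ± 26.7 against 24.8 ± 6.85 RPKM, adjusted p = 0.00321) and was not called between Il33+ and Il33- WAT-MSC (adjusted p = 0.518). Podn (podocan) was higher in lung, at 759 ± 52.7 against 378 ± 143 RPKM (adjusted p = 0.0386). Ecm2 was the only one of the 6 called in the endothelial comparison, at 93.3 ± 11.8 RPKM in Il33+ WAT-MSC and 34.9 ± 13.1 in endothelium (adjusted p = 0.041). Aspn, Omd, Podn and Ecm2 were all called higher in stroma than in epithelium, by log2 differences of 2.96 to 5.72 for Il33+ WAT-MSC. Chad (chondroadherin) was the reverse, at 38.5, 152 and 83.3 RPKM in epithelium and at most 0.56 in any other library. Tsku (tsukushi) had means of 3.46 to 11.8 RPKM and was called in none of the 5 comparisons (smallest adjusted p = 0.13). In the first 3 comparisons 5 of these 6 genes passed the filter on low values. Of them 1 was called higher and 0 lower between Il33+ and Il33- WAT-MSC, 1 and 1 against lung, and 1 and 0 against endothelium, with log2 medians of 0.57, 0.28 and 1.41. All 6 were tested against epithelium, with 4 higher and 1 lower in either Il33+ stroma. In the order of the 5 comparisons, 1.57, 6.00, 3.90, 41.0 and 43.0% of all genes were called.

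**Figure D5:**
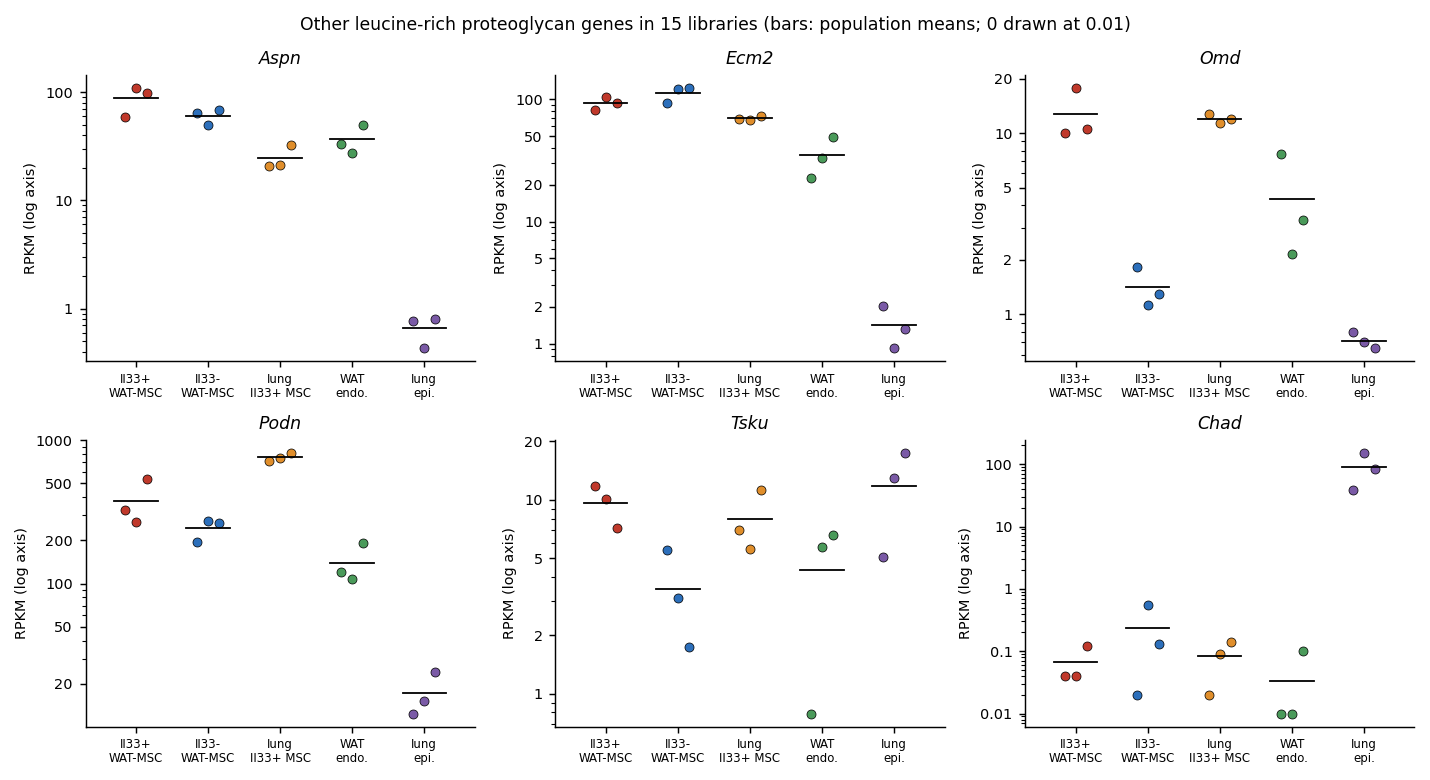
RPKM on a log axis for 6 further leucine-rich proteoglycan genes in the 15 libraries, with bars at the means and values of 0 drawn at 0.01. Omd is lowest among stromal cells in Il33- WAT-MSC, Podn is highest in lung Il33+ MSC, and Chad is high only in lung epithelium.

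Collagens that SLRPs bind were compared next. Of 11 measured, 1 was higher and 1 lower in Il33+ than in Il33- WAT-MSC, where 1.57% of all genes were called, with a median log2 difference of -0.35. Col14a1, a fibril-associated collagen, was 125 ± 12.2 against 60.0 ± 9.70 RPKM (adjusted p = 0.0389), and Col5a3, a chain of the type V collagen that nucleates fibrils, was 18.7 ± 6.05 against 59.2 ± 8.35 (adjusted p = 0.0137). Against lung, Col5a3 (2.89 ± 0.868 RPKM in lung) and Col6a3 (103 ± 23.5 against 44.7 ± 8.10) were higher in WAT, 2 of the 11 where 6.00% of all genes were called. Col14a1 was the only collagen called against endothelium. All 11 were higher in both Il33+ stromal populations than in epithelium, with medians of 4.95 and 4.50, led in WAT by Col3a1, Col14a1 and Col5a1 and in lung by Col1a1 (2149 ± 494 against 29.2 ± 15.3 RPKM), Col1a2 and Col3a1. Of all genes tested, 23.0% and 24.4% were higher in these comparisons.

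Enzymes that build the sugar chains were read from 2 lists. Of 20 tested genes of chondroitin and dermatan sulphate synthesis, 2 were lower in Il33+ than in Il33- WAT-MSC, with 1.57% of all genes called. These were Csgalnact1, which starts chondroitin chains (1.74 ± 0.34 against 7.82 ± 0.923 RPKM, adjusted p = 0.0183), and Chst15, which adds a further sulphate to them (2.09 ± 0.555 against 9.74 ± 2.58, adjusted p = 0.0187). Chst15 was also higher in endothelium (13 ± 3.81 RPKM, adjusted p = 0.015). Between WAT and lung Il33+ stroma 0 of the 20 were called by limma, 5 having an unadjusted p below 0.05. Of all genes tested there, 1486 of 8554 had such a p. Against epithelium, 10 of 19 and 10 of 20 were higher in WAT and lung Il33+ stroma and none lower. Of all genes tested, 23.0% and 24.4% were higher in these comparisons. Among the called genes of the list was Ugdh, which supplies the uronic acid donor (107 ± 48.6 and 53.9 ± 15 against 4.04 ± 0.58 RPKM). Papss2, which makes the sulphate donor, and Chst12 were named with it in WAT, and Chpf and Chst12 in lung. Of 8 genes of keratan chains and tyrosine sulphation, 0 were called in the first 3 comparisons by limma, with 0, 2 and 1 at an unadjusted p below 0.05. Over all genes tested, 980 of 8448, 1486 of 8554 and 1335 of 8665 had such a p. The log2 medians of the 8 genes were -0.15, 0.14 and 0.45. Against epithelium 3 of 7 were higher and 0 lower in WAT, and 4 higher and 1 lower in lung Il33+ stroma. These comparisons called 41.0% and 43.0% of all genes in either direction. Tpst1, a tyrosine sulphotransferase, was 45.5 ± 9.32 RPKM in Il33+ WAT-MSC, 35.9 ± 3.14 in lung Il33+ MSC and 2.43 ± 2.64 in epithelium. B3gnt2 and B4galt1 were called higher in both epithelial comparisons, and Chst2 in that with lung (adjusted p = 0.000181), its adjusted p with WAT being 0.087.

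Among 12 measured enzymes that process or cut matrix, Mmp3, a matrix protease, had the largest called differences within stroma. It was 21.1 ± 5.23 RPKM in Il33+ WAT-MSC, 1.76 ± 1.34 in Il33- WAT-MSC (adjusted p = 0.00382) and 109 ± 4.89 in lung Il33+ MSC (adjusted p = 0.000202 against WAT). It was the only one called between the WAT populations, where 1.57% of all genes were called. Pcolce2, an enhancer of procollagen processing, was also higher in lung, at 122 ± 7.67 against 55.7 ± 13.7 RPKM. Mmp2, Mmp14 and Adamts5 were higher in Il33+ WAT-MSC than in endothelium, by log2 differences of 1.52, 1.21 and 1.44. All 11 tested were higher in stroma than in epithelium in both comparisons, where 23.0% and 24.4% of all genes were higher. Pcolce was at 275 ± 66.0 and 402 ± 64.5 RPKM in WAT and lung stroma and 10.0 ± 2.09 in epithelium. Adamts4 and Mmp2 led with it in WAT, and Mmp3 and Mmp2 in lung.

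Of 12 ligands and receptors of SLRPs, 0 were called by limma between Il33+ and Il33- WAT-MSC, with 2 at an unadjusted p below 0.05. Of all genes tested there, 980 of 8448 had such a p. Against lung, Egfr, a receptor that decorin binds, was higher in WAT (65.7 ± 10.1 against 31.3 ± 2.41 RPKM, adjusted p = 0.00883), and Tgfb3 was lower (18.5 ± 7.13 against 60.1 ± 15.8, adjusted p = 0.00763). Egfr was the only one called against endothelium, and it stood at 4.37 ± 0.968 RPKM in epithelium. In each epithelial comparison 6 of 12 were higher and 1 lower, with the endocytic receptor Lrp1 and Tgfb3 named beside Egfr. Of all genes tested, 41.0% were called with WAT stroma and 43.0% with lung stroma, 23.0% and 24.4% being higher in stroma. Of the other proteoglycans, the basement membrane component Hspg2 (perlecan) was lower in Il33+ than in Il33- WAT-MSC (50.7 ± 23.6 against 155 ± 37.4 RPKM, adjusted p = 0.0478), as the only 1 of 11. Gpc3 (glypican 3) was lower in WAT than in lung, at 102 ± 16.2 against 201 ± 6.36 RPKM. Against endothelium 3 of 12 were higher and 1 lower, where 3.90% of all genes were called. Vcan and Sdc2 were higher and Srgn, the granule proteoglycan of endothelial and blood cells, lower in Il33+ WAT-MSC than in endothelium (7.19 ± 4.57 against 67.0 ± 14.4 RPKM for Srgn), and Gpc6 and Vcan led over epithelium in both tissues, with Hspg2 in WAT and Gpc3 in lung.

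Across the 15 libraries, log2(RPKM + 1) of Dcn correlated with that of Lum at r = 0.985, of Ogn at 0.98 and of Prelp at 0.977, and Fmod correlated least with the rest, from 0.662 with Ogn to 0.884 with Bgn. These values describe 15 libraries that share 5 populations, with epithelium far below stroma, and are not a test. Among 9981 genes, the 3 most like each member were Dpt, Calu and Fstl1 for Dcn (r = 0.992 to 0.995), Penk, C1qtnf1 and Medag for Lum (0.992 to 0.995) and Zeb2, Gsn and Cxcl1 for Ogn (0.982 to 0.989). They were Col5a2, Col5a1 and Nav1 for Prelp (0.987 to 0.988), and Cygb, Igsf10 and Coq10b for Bgn (0.977 to 0.98). For Fmod they were Spock2, C7 and Ccbe1 (0.928 to 0.967). C7, a terminal complement component, had means of 265, 33.0 and 275 RPKM in Il33+ WAT-MSC, Il33- WAT-MSC and lung Il33+ MSC, the same order as Fmod, and Igsf10 of the Bgn group had 72.3, 29.5 and 111.

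The share of Dcn RPKM assigned to NM_001190451, whose first exon lies 2758 bases upstream, was 42.2 ± 3.39% in Il33+ WAT-MSC, 39.7 ± 2.81% in Il33- WAT-MSC and 36.6 ± 3.55% in lung Il33+ MSC. It was 46.5 ± 10.8% in endothelium and 33.9 ± 11.2% in epithelium, and all 5 ranges overlapped at least 1 other. The transcripts share 1577 exon bases and differ in 181, so this share rests on few distinguishing bases. The labels give the replicates as separate samples but not whether they came from separate mice, so the p-values measure only the spread between these samples, which may be technical. An exact permutation test of 3 against 3 libraries cannot give p below 0.1.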

How the data were processed

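RNA-seq was read from 15 libraries of 5 sorted mouse populations, grouped by their labels, with 3 each. The labels state amplification with an Ovation RNA-seq kit, and the methods and the submitters' notes name alignment with TopHat2 in Partek to mm10. The authors deposited RPKM per RefSeq transcript. The strand setting of the counting and the filter behind the list of transcripts are not given in the sources used here, so reads from overlapping or antisense genes cannot be told apart. The values of the 12698 transcripts were summed per gene symbol, of which 1786 had more than 1 transcript. Of the transcripts 41 stayed below 1 RPKM in every library, and 0 pairs of libraries were identical (r within a population 0.773 to 0.962).

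Limma 3.58.1 (lmFit, eBayes with trend) in R 4.3.3 was fitted for each comparison on log2(RPKM + 1), which understates changes of low genes. A gene entered if 3 or more of the 6 libraries reached 1 RPKM, p-values were adjusted by Benjamini-Hochberg over all genes that entered, and 0.05 was the threshold. Folds are ratios of mean RPKM, and log2 values come from the fit. In the main limma fits of the first 3 comparisons, 980 of 8448, 1486 of 8554 and 1335 of 8665 genes had an unadjusted p below 0.05. Where members at that level are counted for an alternative, the count over all genes is not given. Simulated tables with 200 altered genes and independent noise for each gene were run through the fit. They lack the shifts between real libraries, so they do not bear on the calls reported here. Python 3.11.15 with pandas 2.3.3, numpy 2.4.6, matplotlib 3.10.9 and scipy 1.17.1 made the tables and figures. Genes named are the 6 members, each measured gene of the list of other family members, the 3 called genes with the largest change per further list and comparison, and the 3 genes most correlated with each member. Members, lists and markers were chosen with earlier results of these data known. Alternatives were a replicate block, a fit of all libraries together, the lane (from the library names) as a term, quantile or median-ratio scaling, 0.1 as pseudocount, leaving the filter out or requiring 1 RPKM in all 3 libraries of a population, taking the most abundant transcript, and leaving out each library. Replicate numbers were not taken as pairs: in their deviations from the population means, same-numbered libraries correlated at -0.0784 to 0.149 over the 5 comparisons, and in none was every pair over 0.1. Promoters and motif shares used RefSeq windows of GRCm38.p6.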

Additional observations from a re-analysis of the deposited data

How the results depend on the processing

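The members called between Il33+ and Il33- WAT-MSC went from 1 to 2 with the replicate block, with the lane as a covariate, and with median-ratio or quantile scaling (Fmod and Bgn each time). The count by limma was 0 with all 15 libraries in one fit and with no filter (3 at an unadjusted p below 0.05 each), and 1 without any one library. Same-numbered libraries correlated at 0.04 to 0.10 in their deviations there, so the labels' replicate numbers were not taken as pairs, and the replicate block raised the calls over all genes from 133 to 232. In the other 4 comparisons the block left the number of members called as it was. Against lung Il33+ MSC the count was 1, and 0 to 1 with each library left out. Against endothelium it was 2, and it became 4 with all 15 libraries in one fit, 1 with median-ratio or quantile scaling, 3 with the lane or the most abundant transcript, 0 by limma with a pseudocount of 0.1 or no filter (4 and 2 at an unadjusted p below 0.05), and 0 to 2 with each library left out. Both epithelial comparisons gave 6 throughout, and the steps between neighbours called numbered 6 to 9 around 8. Reversed signs were seen only in differences that were not called. Between Il33+ and Il33- WAT-MSC, the log2 difference of Ogn became -0.073 with quantile scaling. With each library left out it ran from -0.18 to 0.31 for Ogn, below 0 without Il33+ replicate 2, and from -0.071 to 0.19 for Dcn, below 0 without Il33+ replicate 2 (-0.027) or Il33- replicate 1. That of Prelp against lung became 0.011 with quantile scaling. The causes were not tested.

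Over all genes, calls fell from 133 to 20 with no filter in the first comparison (49 to 121 with a library left out), from 513 to 331 with all libraries in one fit against lung (191 to 447), and rose from 338 to 803 in that fit against endothelium (56 to 261). Against epithelium they went from 3800 to 2364 to 3066 with a library left out of the Il33+ WAT-MSC comparison. Read depth per gene is unknown, low genes such as Fmod in epithelium rest on few RPKM, and 3 libraries a population limit the precision.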
